A study of Homo sapiens with 12 samples.

Results

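Expression of 10 WNT pathway genes was examined in the glioblastoma cell lines U87 and U118 before and after they had become resistant to temozolomide (TMZ), an alkylating drug. The genes were chosen by symbol, with earlier results of these data known. They were the ligands WNT5A and WNT5B, the receptors FZD2, FZD7 and FZD8, and the secreted antagonists DKK1, DKK3 and SFRP1. The others were the scaffold and target gene AXIN2 and the transcription factor TCF7L2. All 10 were found by Ensembl identifier among the 58174 genes of each table. U87 (U-87 MG) and U118 (U-118 MG) are established lines from human glioblastoma. The labels call the untreated cells sensitive and the cells kept continuously under 50 µM TMZ resistant. The study's text places the formation of aggregations partly during and partly after treatment, so whether the sequenced cells were still under drug is not clear. The study's methods describe the sensitive cells as CD133-CD15- sorted cells grown with serum and BMP2, and the resistant cells as aggregations that grew out in small number after weeks of drug. The aggregations formed in the same serum and BMP2 medium, and in some experiments were moved to a stem cell medium. Which of the media the sequenced resistant cells came from is not given in the sources used here, and the drug and the outgrowth of a few aggregations cannot be told apart. There were 3 mRNA libraries in each of the 4 groups, and nothing in the labels says that they came from separate cultures, so p-values measure only the spread between these libraries.

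WNT ligands are lipid-modified secreted proteins that bind Frizzled receptors. In the canonical branch, the ligand brings Frizzled together with an LRP co-receptor and stabilises beta-catenin, which then acts with TCF/LEF factors on target genes such as AXIN2. WNT5A and WNT5B mostly use branches without beta-catenin, with ROR, RYK and PTK7 as further receptors, and have been linked to migration and invasion of glioma cells. Antagonists act outside the cell: SFRP proteins bind WNT ligands, and DKK1 blocks the LRP co-receptors.

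Values were TPM, a level that corrects for transcript length and sums to an equal total in each library. Read counts cannot be recovered from it, and library depth is therefore unknown. From 13270 to 15290 genes reached 1 TPM per library. The share of mitochondrially encoded genes was 12.9% to 16.9% in U87 sensitive, 22.2% to 23.7% in U87 resistant, 7.42% to 19.7% in U118 sensitive and 13.2% to 29.9% in U118 resistant libraries. Replicate 3 of U118 sensitive differed from its group in this share, with 19.7% against 7.42% and 8.55%. Its 15129 genes at 1 TPM were near the 15290 and 15226 of the others. U118 resistant replicate 1 stood apart within its group, with 13.2% against 26.1% and 29.9% in the other libraries, and 15193 against 13270 and 13545 genes at 1 TPM. Without it, 7 rather than 6 members were called lower in U118, and lower calls over all genes went from 4134 of 15527 to 5765 of 16032.

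The U118 resistant libraries also resembled U87 more than the sensitive cells of their own line. Spearman's rho across genes, which are not independent replicates, was 0.902 to 0.914 between U118 resistant and U87 sensitive libraries and 0.821 to 0.845 between U118 resistant and U118 sensitive libraries. Of 92 genes with at least 10 TPM in every U118 sensitive library and under 0.1 TPM in every U87 library, SFRP1 among them, 59 were under 0.1 TPM in all 3 U118 resistant libraries and 3 were at 10 TPM or more. Of 36 genes with the opposite pattern, DKK1 among them, 21 were at 10 TPM or more in all 3 U118 resistant libraries. The part of this resemblance in the U118 results was not tested, and each U118 change below is a difference between the libraries labelled sensitive and resistant. Of the glioma and glial markers looked at, 6 of 10 had a mean of at least 1 TPM in each U87 group and 4 of 10 in each U118 group, with AQP4 at 0 in every library and SOX2 at 0 in every U87 library. The summed level of 8 fibroblast markers was 199 to 206 TPM in U87 sensitive, 372 to 445 TPM in U87 resistant, 993 to 1343 TPM in U118 sensitive and 196 to 437 TPM in U118 resistant libraries. Epithelial, blood cell and endothelial markers summed to at most 5.34 TPM per list and library.

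Sensitive and resistant libraries were compared within each line with limma on log2(TPM + 1), and a call needed an adjusted p (Benjamini-Hochberg) under 0.05 together with a log2 fold change of 1 or more in either direction. Fold changes below are resistant minus sensitive on this scale, which understates the change of genes at low levels. In U118, 6 of the 10 members were called lower (WNT5B, DKK3, SFRP1, FZD2, FZD7 and FZD8) and 1 higher (DKK1), where 26.6% of all 15527 genes tested were called lower, 8.64% higher and 35.3% either way. A gene was tested if it had at least 1 TPM in 3 of 6 libraries. SFRP1 reached 1 TPM only in sensitive and DKK1 only in resistant libraries of U118, so the direction of these calls was set by this filter. In U87, FZD2 was called lower, 0 members were called higher by limma (5 were above at an unadjusted p under 0.05), and DKK3 and SFRP1 were too low to be tested. Of those 5, FZD7 reached 1 TPM only in resistant libraries of U87, so its direction was set by the filter. Of all 13845 genes tested in U87, 10.8% were called, 3.03% higher and 7.79% lower. Because the members were chosen with earlier results of these data known, their counts beside these shares are a description only. The members' median log2 fold change was 0.61 in U87 over 8 tested members and -1.72 in U118 over 10, beside -0.24 and -0.52 over all genes tested. The plot of the members by library shows these levels.

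**Figure D1:**
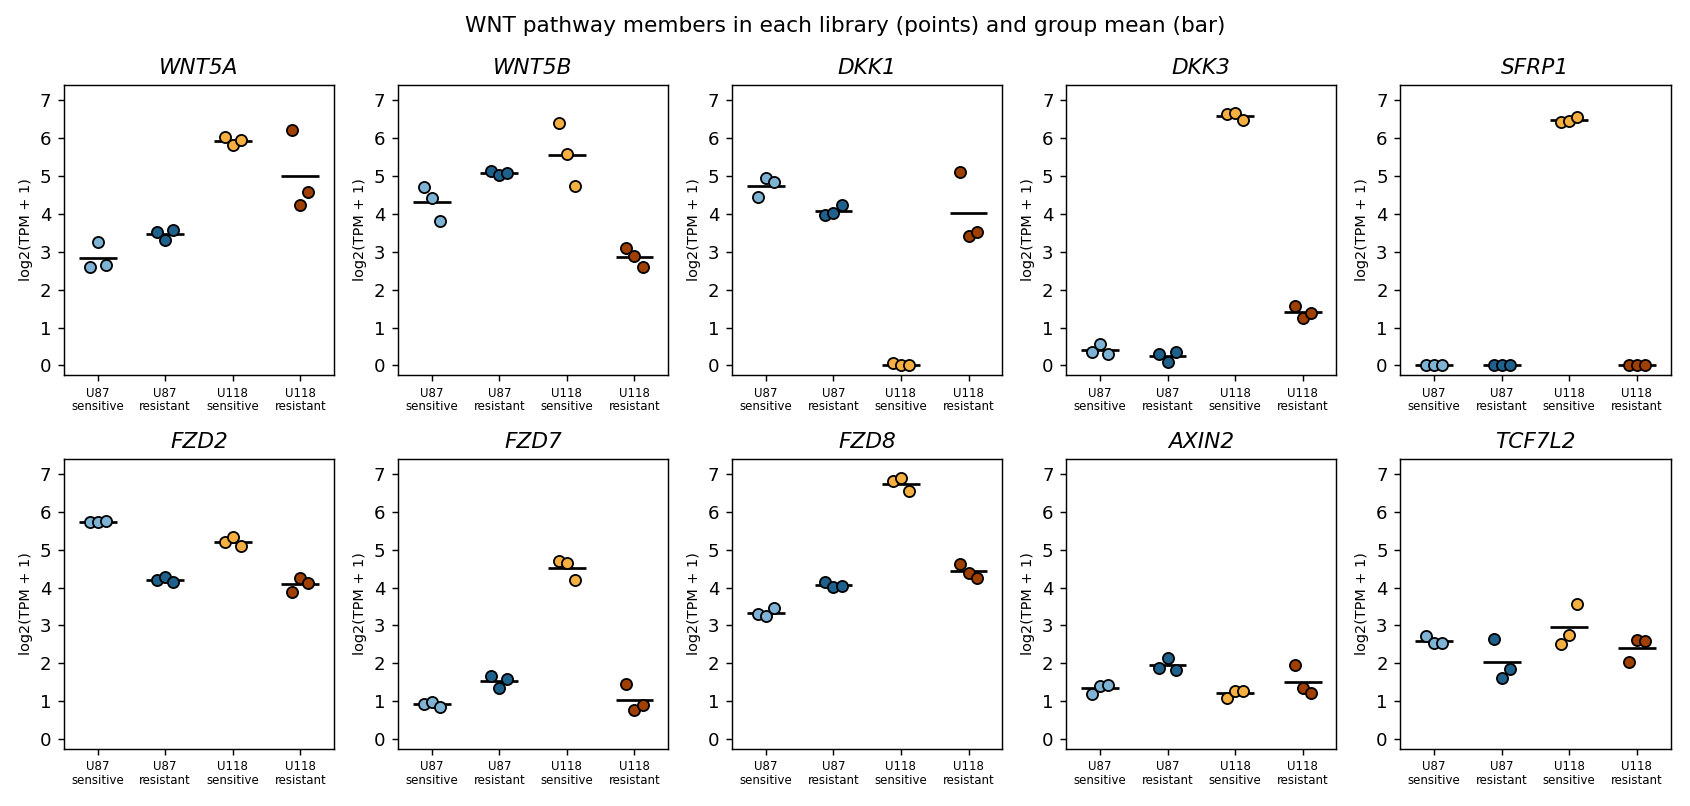
Expression of the 10 WNT genes as log2(TPM + 1) on the vertical axis, for the 4 groups on the horizontal axis. Points are the 3 libraries of a group in order of replicate number and bars are their mean. DKK3, SFRP1, FZD7 and FZD8 stood highest in all 3 U118 sensitive libraries, while DKK1 was near 0 there and present in the other groups.

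Members were also compared without the fold threshold. At an adjusted p under 0.05 without a fold threshold, 7 of the 8 tested members differed in U87, 5 upward (WNT5A, WNT5B, FZD7, FZD8 and AXIN2) and 2 downward (DKK1 and FZD2), where 39.1% of all genes tested passed. FZD7 reached 1 TPM in U87 only in resistant libraries, so its upward direction and lack of overlap were set by the filter. FZD2 and FZD8 passed in every alternative run. Of the 7, 3 still passed without U87 sensitive replicate 3, 3 without resistant replicate 1, 3 without resistant replicate 2, 4 without resistant replicate 3 and 3 with no filter on low values. WNT5A was the nearest to the threshold and passed in 1 of the 6 fits that left out a U87 library. Sensitive and resistant libraries did not overlap for 7 of the 8, beside 53.4% of all genes tested. In U118, 7 of 10 members passed without the fold threshold, beside 51.3% of all genes tested, and the groups of 7 did not overlap, beside 58.6%. The median of all genes lay below 0 on this scale in both lines, and rescaling the libraries by median ratios moved that median to -0.01 in U87 and to -0.02 in U118. Under this rescaling, higher calls made up 55% of all calls in U87 (28% without it) and 54.1% in U118 (24.5% without it). The members' calls in U118 then were 1 higher and 5 lower, with FZD2 lost, and WNT5B was called higher in U87.

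WNT5A, which encodes a ligand of the beta-catenin-independent branch (ENSG00000114251, GRCh38 chromosome 3, 55465715 to 55490539, minus strand), was higher in every U118 library than in any U87 library, although the tables of the lines are separate. It measured 5.06, 8.58 and 5.31 TPM in U87 sensitive libraries 1 to 3 and 10.5, 8.95 and 11.0 TPM in the resistant ones. In U118 it measured 64.3, 55.7 and 60.3 TPM in sensitive and 73.1, 17.8 and 22.7 TPM in resistant libraries. The U87 groups lay apart with every resistant library above every sensitive one, whereas in U118 resistant replicate 1 was above all sensitive libraries and the other resistant libraries were far below them. The log2 fold change was 0.64 (SE 0.21, adjusted p = 0.0498 by limma) in U87 and -0.93 (SE 0.45, adjusted p = 0.112) in U118, and neither was called. Without U118 resistant replicate 1 the U118 value was -1.53 (adjusted p = 0.000282), which passed. In bulk libraries, less RNA of a gene in each cell and fewer cells that express it cannot be told apart.

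WNT5B, the closest relative of WNT5A (ENSG00000111186, GRCh38 chromosome 12, 1529891 to 1647243, plus strand), had differences of opposite sign in the lines. It was at 25.3, 20.4 and 13 TPM in U87 sensitive libraries and at 33.9, 31.5 and 32.6 TPM in U87 resistant ones. U118 sensitive libraries held 82.5, 46.9 and 25.5 TPM and U118 resistant libraries 7.56, 6.42 and 5.09 TPM. The groups of neither line overlapped, and the sensitive libraries spread more widely than the resistant ones in both lines. WNT5B fell in U118 by 2.70 on the log2 scale (SE 0.39, adjusted p = 0.000528 by limma), an 8.12-fold difference of the group means. In U87 its log2 fold change of 0.76 (SE 0.22, adjusted p = 0.0344) missed the fold threshold and reached 1.01 (adjusted p = 0.0103) with median-ratio scaling.

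The remaining ligands put these levels into context, and all 19 WNT ligand genes were summed per library. The sums of 144 ± 11.5 TPM in U87 sensitive and 156 ± 4.15 TPM in U87 resistant libraries (SD, n = 3) overlapped between groups (exact permutation test, two-sided p = 0.3). Those of 131 ± 34.5 TPM in U118 sensitive and 120 ± 37.5 TPM in U118 resistant libraries (SD, n = 3) overlapped too (exact permutation test, two-sided p = 0.5). The make-up of the U118 sum was not the same in the groups. WNT5A and WNT5B together with WNT9A carried the sensitive sum, at mean shares of 47.8%, 37.5% and 10.1%, while in resistant libraries WNT7B held 58.9%, WNT5A 28.8% and WNT5B 5.45%. In U87, WNT7B held 75% in sensitive and 66.7% in resistant libraries, with WNT5B at 13.5% and 21%.

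WNT7B encodes a ligand known for canonical signalling in brain vessel development. It was at 0.0657, 0.0976 and 0.0458 TPM in U118 sensitive and at 71.9, 68.3 and 61.7 TPM in U118 resistant libraries, a log2 fold change of 5.99 (SE 0.22, adjusted p = 2.83e-07 by limma). In U87 its means were 108 ± 7.46 and 104 ± 2.5 TPM (SD, n = 3). WNT9A went the other way and was listed at 0 in all U118 resistant and all U87 libraries, against 15.9, 14.8 and 8.89 TPM in U118 sensitive ones (adjusted p = 4.85e-06). WNT10B, another canonical ligand, rose in U118 from a mean of 0.689 ± 0.227 to 5.44 ± 1.56 TPM (SD, n = 3), a log2 fold change of 1.91 (adjusted p = 0.000268 by limma). In U118, WNT7B and WNT10B reached 1 TPM only in resistant libraries and WNT9A only in sensitive ones. They entered the fit through that group alone, so the direction of these calls was set by the filter. Of the 19 ligand genes, 2 rose and 2 fell among 6 tested in U118, beside 8.64% and 26.6% of all genes tested. In U87, 0 of 5 tested were called by limma, beside 10.8% of all genes tested, and 2 passed an unadjusted p of 0.05. PORCN and WLS, which lipidate and release WNT proteins, were not called in either line.

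**Figure D2:**
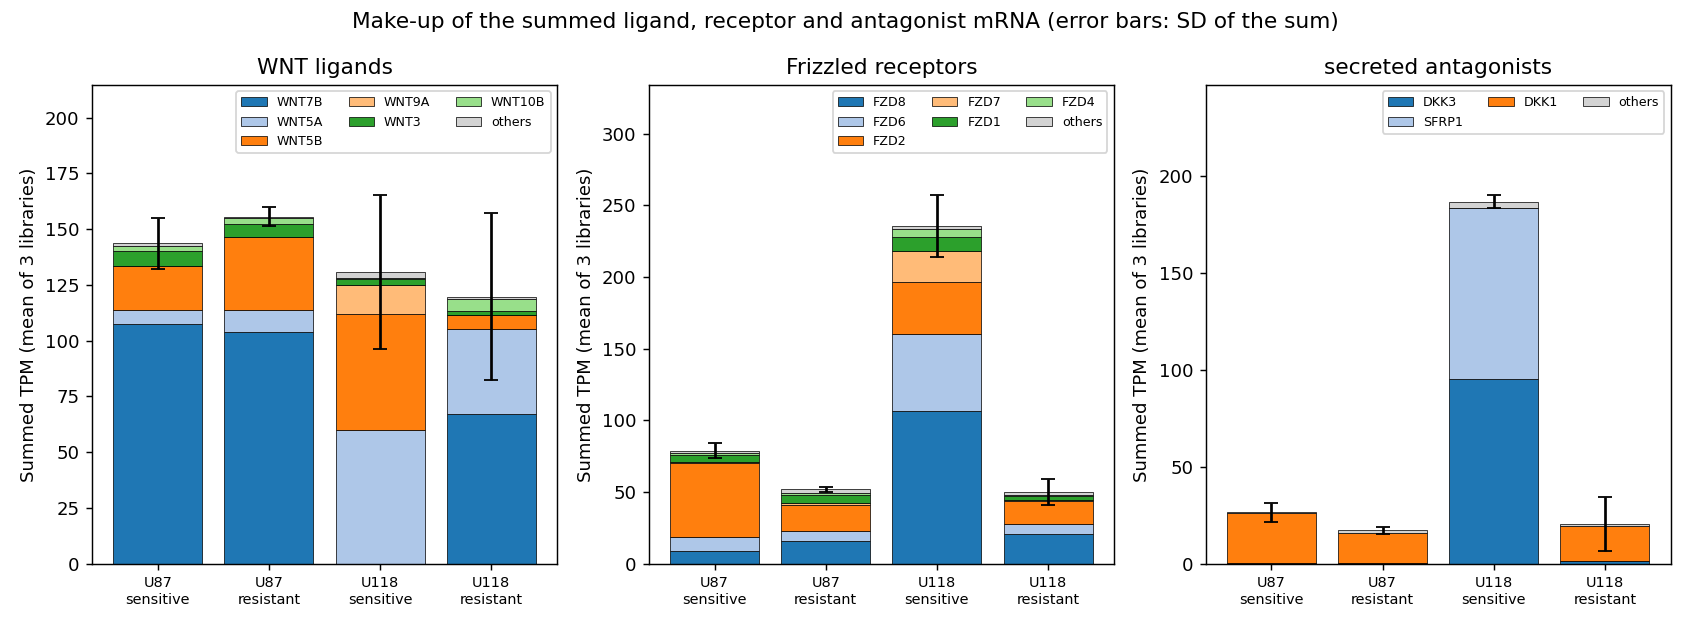
Summed TPM of 19 WNT ligand genes, 10 Frizzled genes and 12 secreted antagonist genes on the vertical axis, as the mean of 3 libraries for each group on the horizontal axis, with the SD of the sum as error bars. Coloured segments are genes whose mean reached 5 TPM in some group and grey is the rest. The ligand sums overlapped between groups while their make-up differed in U118, and the Frizzled and antagonist sums stood highest in U118 sensitive libraries.

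Frizzled genes encode the WNT receptors of the cell surface, and FZD2 was the member that fell in both lines. FZD2 (ENSG00000180340, GRCh38 chromosome 17, 44557459 to 44559570, plus strand) was at 51.6, 51.8 and 52.6 TPM in U87 sensitive and 17.3, 18.5 and 16.9 TPM in U87 resistant libraries. U118 sensitive libraries held 35.6, 39.5 and 33.4 TPM and resistant ones 13.6, 18.0 and 16.4 TPM. The spread within groups was small beside the gap between them in both lines. FZD2 fell by 1.52 on the log2 scale in U87 (SE 0.09, adjusted p = 8.06e-05 by limma) and by 1.13 in U118 (SE 0.21, adjusted p = 0.00235), and the difference between these changes was 0.38 (SE 0.20, adjusted p = 0.158). The U87 call held under all alternatives run. In U118 it was lost with median-ratio scaling (-0.59, adjusted p = 0.108) and with mitochondrially encoded genes left out of the TPM (-0.95, adjusted p = 0.00663).

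FZD8 (ENSG00000177283, GRCh38 chromosome 10, 35638249 to 35642278, minus strand) was the most abundant Frizzled mRNA in U118 sensitive cells, with 45.2% of the summed Frizzled TPM. The last 120 bases before its RefSeq start, at position 35642296, are shown because FZD8 and DKK1 had opposite calls in U118 and are, of the members with an upstream window, the ones in which it holds a TATAAA word in the reading direction. Capitals mark a GCGTG word, the hypoxia response core, 97 bases before the RefSeq start and the TATAAA word 29 bases before it. The sequence is from RefSeq, GRCh38.p14, chr10:35642297-35642416, minus strand.
FZD8: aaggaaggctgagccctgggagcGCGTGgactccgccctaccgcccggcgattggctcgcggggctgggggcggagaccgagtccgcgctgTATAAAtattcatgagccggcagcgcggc
The words ACGTG or GCGTG were found on either strand in 43.2%, and TATAAA in 10.7%, of 35114 upstream windows of 250 bases.

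FZD8 was called in U118 only. Its levels were 8.78, 8.48 and 9.95 TPM in U87 sensitive and 16.8, 15.2 and 15.4 TPM in U87 resistant libraries. They were 110.3, 117 and 92.3 TPM in U118 sensitive and 23.6, 20.1 and 18.2 TPM in U118 resistant libraries. All U118 resistant libraries were thus far below the sensitive ones yet above every U87 library. The U118 fall was 2.32 on the log2 scale (SE 0.21, adjusted p = 3.14e-05 by limma), a 5.17-fold difference of the means. The U87 log2 fold change was 0.74 (SE 0.12, adjusted p = 0.0038), with no overlap of the groups.

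FZD7 (ENSG00000155760, GRCh38 chromosome 2, 202034587 to 202038445, plus strand), which serves both WNT branches, was low in all groups but U118 sensitive. It measured 0.914, 0.982 and 0.787 TPM in U87 sensitive and 2.15, 1.56 and 1.99 TPM in U87 resistant libraries. In U118 it measured 24.9, 23.9 and 17.3 TPM in sensitive and 1.74, 0.693 and 0.868 TPM in resistant libraries. FZD7 fell in U118 by 3.47 on the log2 scale (SE 0.28, adjusted p = 1.39e-05 by limma), a 20.02-fold difference of the means. In U87 its log2 fold change of 0.61 (SE 0.14, adjusted p = 0.0135) was under the fold threshold, and with a pseudocount of 0.1 in place of 1 it was 1.00 (adjusted p = 0.0162), which passed. Within U87, FZD7 reached 1 TPM only in resistant libraries, so the direction of its change there was set by the filter.

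Over the 10 Frizzled genes, 6 of 7 tested fell in U118, beside 26.6% of all genes tested, FZD5 being the exception with means of 2.08 and 1.66 TPM and the FZD2 call depending on the scaling. In U87, 1 of 7 fell, beside 7.79% of all genes tested. FZD6 fell from 53.4 ± 4.96 to 7.02 ± 5.60 TPM in U118 (SD, n = 3), by 2.97 on the log2 scale (adjusted p = 0.000418 by limma). FZD1 and FZD4 fell there by 1.56 and 1.97 on the log2 scale (adjusted p = 0.00164 and 0.000227). The summed Frizzled TPM was 235 ± 21.5 in U118 sensitive and 50.2 ± 9.25 in U118 resistant libraries, and 78.9 ± 5.43 and 51.9 ± 1.95 in U87 (SD, n = 3). The groups did not overlap in either line, and an exact permutation test gave a two-sided p = 0.1 in both, the smallest that 3 against 3 libraries can give. In U87 the Frizzled sum moved from FZD2, with 66.1% of it in sensitive and 33.9% in resistant libraries, towards FZD8, with 11.5% and 30.4%. In U118 resistant libraries FZD8 and FZD2 held 41.4% and 33.1%.

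Of the 6 co-receptors and alternative receptors listed, 3 of 4 tested fell in U118, beside 26.6% of all genes tested, and 1 of 3 tested rose in U87, beside 3.03%. ROR1, a receptor of WNT5A, fell from 11.1 ± 2.82 to 1.25 ± 0.290 TPM (SD, n = 3), by 2.41 on the log2 scale (adjusted p = 8.05e-05 by limma). PTK7, a co-receptor in planar polarity signalling, fell there from 11.2 ± 1.64 to 0.134 ± 0.0624 TPM, by 3.41 (adjusted p = 3.08e-06), and rose in U87 from 0.270 ± 0.0650 to 2.25 ± 0.981 TPM (SD, n = 3), by 1.32 (adjusted p = 0.00351). It reached 1 TPM only in U118 sensitive and U87 resistant libraries, so the direction of both PTK7 calls was set by the filter. RYK, a further receptor of WNT5A, fell in U118 from 45.3 ± 3.45 to 20.3 ± 10.7 TPM, by 1.23 (SE 0.32, adjusted p = 0.0125). The RYK call was lost without U118 sensitive replicate 2 (adjusted p = 0.0508), without sensitive replicate 3 (adjusted p = 0.0599), without resistant replicate 2 (-0.97), with no filter (adjusted p = 0.0503) and with median-ratio scaling (-0.69). In U87 the RYK groups did not overlap either, and its log2 fold change of -0.94 (adjusted p = 0.0161 by limma) missed the fold threshold. LRP6, the co-receptor of canonical signalling, was not called in either line. In U118 it went from 7.85 ± 0.606 to 3.78 ± 1.25 TPM (SD, n = 3) without overlap. That log2 fold change of -0.92 (adjusted p = 0.0151) missed the fold threshold, and in U87 it was -0.03 (adjusted p = 0.942).

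DKK1 (ENSG00000107984, GRCh38 chromosome 10, 52314296 to 52318042, plus strand), a secreted inhibitor of LRP co-receptors and itself a known target of beta-catenin with TCF factors, was the member that rose in U118. The last 120 bases before its RefSeq start, at position 52314281, are shown because they hold words that TCF/LEF factors are known to bind. Capitals mark CTTTGAA and CTTTGTT, which start 95 and 76 bases before the RefSeq start, and TATAAA, which starts 30 bases before it. The sequence is from RefSeq, GRCh38.p14, chr10:52314161-52314280, plus strand.
DKK1: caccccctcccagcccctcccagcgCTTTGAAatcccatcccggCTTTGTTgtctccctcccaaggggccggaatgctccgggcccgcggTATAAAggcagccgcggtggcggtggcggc
The TCF/LEF word was searched on both strands in the form CTTTGAT, in the form CTTTGAA, in the form CTTTGTA and in the form CTTTGTT. Of 35114 windows, 12% held at least 1 and 1.21% at least 2 of them. Windows were found for 5 of the 10 members (WNT5A, WNT5B, DKK1, FZD8 and TCF7L2), and outside DKK1 a TCF/LEF word was found in 1 of the TCF7L2 windows.

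DKK1 measured 20.6, 29.6 and 27.7 TPM in U87 sensitive and 14.7, 15.2 and 17.8 TPM in U87 resistant libraries. In U118 it measured 0.0484, 0 and 0 TPM in sensitive and 33.2, 9.75 and 10.5 TPM in resistant libraries. The U118 sensitive libraries were thus near 0, and the resistant ones lay above and below the U87 range. DKK1 rose in U118 by 3.99 on the log2 scale (SE 0.41, adjusted p = 6.94e-05 by limma), and by 3.45 (adjusted p = 7.41e-06) without U118 resistant replicate 1, its highest library. With a pseudocount of 0.001 the U118 change was 12, so its size depends on this setting and no fold of the means is given. DKK1 entered the U118 fit only through its resistant libraries. In U87 DKK1 was 1.63-fold lower in the mean of resistant libraries, with a log2 fold change of -0.66 (SE 0.16, adjusted p = 0.0175) that missed the fold threshold. The exons of DKK1 share 212 bases with PRKG1-AS1 on the other strand, which was at 6.46, 1.12, 0.0293 and 0.683 TPM in the means of U87 sensitive, U87 resistant, U118 sensitive and U118 resistant libraries. Whether the counting used strand is not given in the sources used here, so reads in these bases are of uncertain origin.

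The other antagonists among the members went the opposite way, by wide margins. SFRP1 (ENSG00000104332, GRCh38 chromosome 8, 41261958 to 41309497, minus strand), which binds WNT ligands through a Frizzled-like domain, was listed at 0 in all 6 U87 libraries. U118 sensitive libraries held 84.6, 86.7 and 93.2 TPM, and all 3 U118 resistant libraries were listed at 0. The gene was called lower in U118 (adjusted p = 2.14e-07 by limma), and no fold is given against a group at 0. SFRP1 entered the U118 fit only through its sensitive libraries. DKK3 (ENSG00000050165, GRCh38 chromosome 11, 11963106 to 12009769, minus strand), a divergent DKK protein that does not act on the LRP co-receptors as DKK1 does, had the same order of groups. It was at 97.9, 101 and 87.6 TPM in U118 sensitive and 1.98, 1.37 and 1.62 TPM in U118 resistant libraries. In U87 it lay between 0.0737 and 0.472 TPM in all 6 libraries. DKK3 fell in U118 by 5.19 on the log2 scale (SE 0.22, adjusted p = 5.24e-07 by limma), a 57.6-fold difference of the means.

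The 12 secreted antagonist genes summed to 187 ± 3.29 TPM in U118 sensitive and 20.4 ± 14 TPM in U118 resistant libraries, and to 26.5 ± 4.84 and 17.2 ± 1.82 TPM in U87 (SD, n = 3). The groups did not overlap in either line (exact permutation test, two-sided p = 0.1, the smallest possible). In U118 sensitive libraries DKK3 held 51.1% and SFRP1 47.3% of the sum. In U118 resistant libraries DKK1 held 84.9%, beside 97.9% in U87 sensitive and 92.5% in U87 resistant libraries. With the DKK receptors KREMEN1 and KREMEN2 included, 3 of 6 tested genes of this group fell (DKK3, SFRP1 and SFRP4) and 1 rose in U118, beside 26.6% and 8.64% of all genes tested, and 0 of 3 were called by limma in U87, where 1 passed an unadjusted p of 0.05 and 10.8% of all genes tested were called.

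The members that act inside the cell were not called in either line. AXIN2 (ENSG00000168646, GRCh38 chromosome 17, 65528563 to 65561647, minus strand) encodes a scaffold of the beta-catenin destruction complex and is widely used as a readout of canonical signalling. It measured 1.29, 1.65 and 1.67 TPM in U87 sensitive and 2.68, 3.41 and 2.57 TPM in U87 resistant libraries. In U118 it measured 1.13, 1.41 and 1.42 TPM in sensitive and 2.91, 1.54 and 1.32 TPM in resistant libraries. The U87 resistant libraries were all above the sensitive ones, while the U118 groups overlapped. The log2 fold change was 0.61 (SE 0.15, adjusted p = 0.0189 by limma) in U87 and 0.30 (SE 0.24, adjusted p = 0.309) in U118, where it was 0.07 without resistant replicate 1. All values lay under 4 TPM. AXIN2 shares 1316 exon bases with ENSG00000266076 on the same strand, listed at 0 in the mean of every group.

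TCF7L2 (ENSG00000148737, GRCh38 chromosome 10, 112950250 to 113167678, plus strand), a nuclear partner of beta-catenin, measured 5.55, 4.8 and 4.82 TPM in U87 sensitive and 5.24, 2.05 and 2.59 TPM in U87 resistant libraries. In U118 it measured 4.72, 5.78 and 10.9 TPM in sensitive and 3.07, 5.17 and 4.99 TPM in resistant libraries. The groups overlapped in both lines. Its log2 fold changes of -0.56 (SE 0.27, adjusted p = 0.146 by limma) in U87 and -0.54 (SE 0.33, adjusted p = 0.19) in U118 were not called. Its exons share 300 bases with ENSG00000233547 on the other strand, at group means of 0.401 to 2.2 TPM.

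The changes of the members were then compared between the lines by the interaction of line and state in 1 limma fit over all 12 libraries. Of the 8 members that could be tested in U87, the change differed between the lines for 5 by the call rule, lower in U118 for WNT5A, WNT5B, FZD7 and FZD8 and higher for DKK1, where 30.5% of all 16382 genes tested were called. DKK3 and SFRP1 also passed, but entered the fit only through their levels in U118, so their result says nothing of a change in U87. The U118 change minus the U87 change was -3.45 (SE 0.49, adjusted p = 0.000135) for WNT5B and 4.65 (SE 0.51, adjusted p = 1.32e-05) for DKK1. It was -4.08 (SE 0.31, adjusted p = 4.83e-07) for FZD7 and -3.06 (SE 0.22, adjusted p = 3.43e-07) for FZD8. For WNT5A it was -1.56 (SE 0.56, adjusted p = 0.0445), and this call was lost in 10 of the 12 fits that left out 1 library, over which the difference ran from -2.17 to -1.18. For AXIN2 it was -0.31 (SE 0.28, adjusted p = 0.412) and for TCF7L2 0.02 (SE 0.45, adjusted p = 0.972), neither called. The plot of the changes sets both lines side by side.

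**Figure D3:**
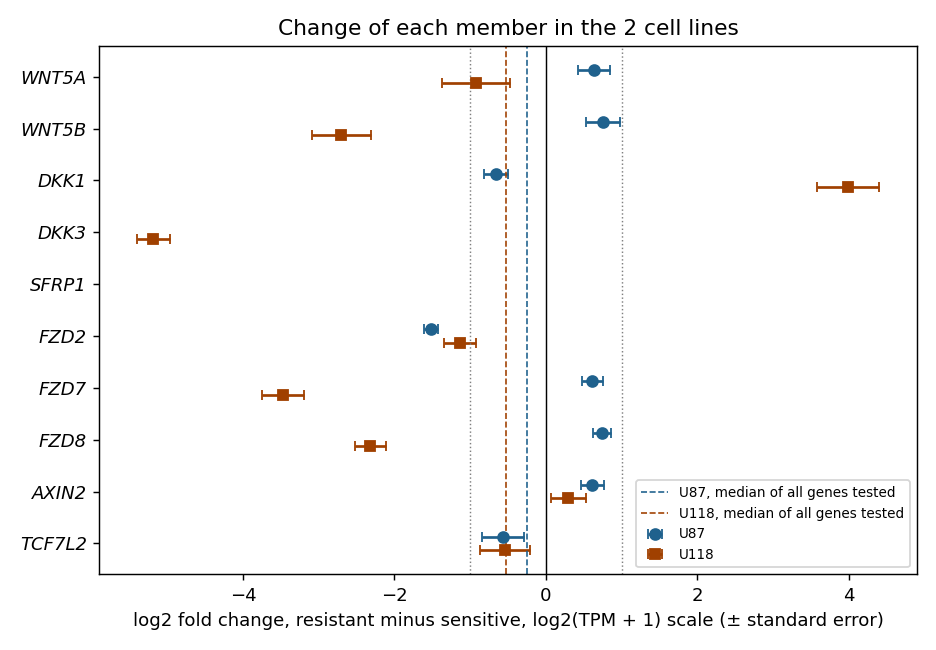
Log2 fold change of each member, resistant minus sensitive, on the log2(TPM + 1) scale of the horizontal axis, with the standard error, for U87 (circles) and U118 (squares). Dashed lines are the medians of all genes tested, at -0.24 in U87 and -0.52 in U118, and dotted lines mark the fold threshold of 1. SFRP1 has no point because groups were at 0, and DKK3 was not tested in U87. WNT5B, FZD7 and FZD8 lie on opposite sides of 0 in the lines and FZD2 lies below 0 in both.

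Levels were also set side by side across the separate tables of the lines, as a description. In log2(TPM + 1), 7 members differed by at least 1 between U87 sensitive and U118 sensitive means. For 6 of the 7, all but WNT5A, the U118 resistant mean was nearer to U87 sensitive than to U118 sensitive (85.7%). Over all genes the same held for 4503 of 6054 (74.4%), so the members followed the direction of most genes that differed between the lines. Among the 87 genes of the wider WNT list it held for 25 of 30 (83.3%).

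The wider list of 87 WNT genes, which contains the members, showed where in the pathway calls lay. In U118, 4 of 50 tested genes were called higher (DKK1, WNT7B, WNT10B and RNF43) and 18 lower (22 without U118 resistant replicate 1), with a median log2 fold change of -0.78 beside -0.52 over all genes tested. Of those called higher there, all but RNF43 entered the fit only through their resistant libraries. In U87, 2 of 44 were called higher (RSPO3 and PTK7) and 2 lower (FZD2 and CTNNBIP1), with a median of -0.17 beside -0.24. PTK7 entered the U87 fit only through its resistant libraries. Without the members, 3 of 40 tested genes were higher and 12 lower in U118, and 2 of 36 higher and 1 lower in U87. In U87, 3.03% of all genes tested were called higher and 7.79% lower. The U118 shares were near those of all genes tested on the higher side (8.64%) and slightly above on the lower side (26.6%), and nothing particular to the list is read from them.

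In the R-spondin axis, which sets how many Frizzled proteins stay at the cell surface, RSPO3 and RNF43 stood out. RSPO3, a secreted enhancer of WNT signalling, rose in U87 from 1.23 ± 0.400 to 7.38 ± 0.541 TPM (SD, n = 3), by 1.92 on the log2 scale (adjusted p = 0.000323 by limma). In U118 it was at means of 0.871 and 0.766 TPM, too low to be tested alone, and RSPO2 was the called gene of the axis that was lower there, at 0 in all resistant libraries against a mean of 2.12 TPM. RNF43, a ubiquitin ligase that removes Frizzled from the surface and is itself a WNT target, measured 0.500, 1.15 and 0.834 TPM in U118 sensitive and 9.97, 3.03 and 4.78 TPM in resistant libraries, a rise of 1.81 (adjusted p = 0.00273). In U87 its log2 fold change was 0.98 (adjusted p = 0.00492), just under the fold threshold.

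Most genes of the cytoplasmic and nuclear steps were not called, and neither were most of all genes tested. The counts in this paragraph stand beside 10.8% of all genes tested called in U87 (3.03% higher and 7.79% lower). In U118, 26.6% of all genes tested were called lower and 8.64% higher. Nothing particular to these steps is read from the counts. Of 12 cytoplasmic transducers, 0 were called by limma in U87, where 6 passed an unadjusted p of 0.05, and 2 fell in U118, GSK3B from 34.4 ± 3.63 to 14.5 ± 1.93 TPM and APC from 10.4 ± 3.89 to 4.27 ± 2.18 TPM (SD, n = 3), both parts of the beta-catenin destruction complex. Their log2 fold changes were -1.20 (adjusted p = 0.00181 by limma) and -1.14 (adjusted p = 0.0367), and the calls of both were lost with median-ratio scaling. The APC call was also lost without U118 sensitive replicate 1 (adjusted p = 0.115), sensitive replicate 3 (-0.91) or resistant replicate 2 (-0.76), and in 3 further alternatives. CTNNB1, which encodes beta-catenin, measured 222, 60.9 and 75.5 TPM in U118 resistant libraries against 223, 211 and 174 TPM in sensitive ones (log2 fold change -0.99, adjusted p = 0.0792). In U87 its log2 fold change was -0.89 (adjusted p = 0.000375). CTNNBIP1, which keeps beta-catenin from binding TCF factors, fell in U87 from 10.1 ± 0.201 to 2.66 ± 0.264 TPM (SD, n = 3), by 1.60 on the log2 scale (adjusted p = 0.00025), the 1 call among 8 tested nuclear factors there, with 0 of 8 called by limma in U118, where 3 passed an unadjusted p of 0.05. Of the feedback target genes, RNF43 rose and TNFRSF19 fell among 6 tested in U118, the latter from 26.2 ± 2.83 to 1.39 ± 0.906 TPM (SD, n = 3), by 3.57 (adjusted p = 1.73e-05), and 0 of 5 were called by limma in U87, where 3 passed an unadjusted p of 0.05.

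**Figure D4:**
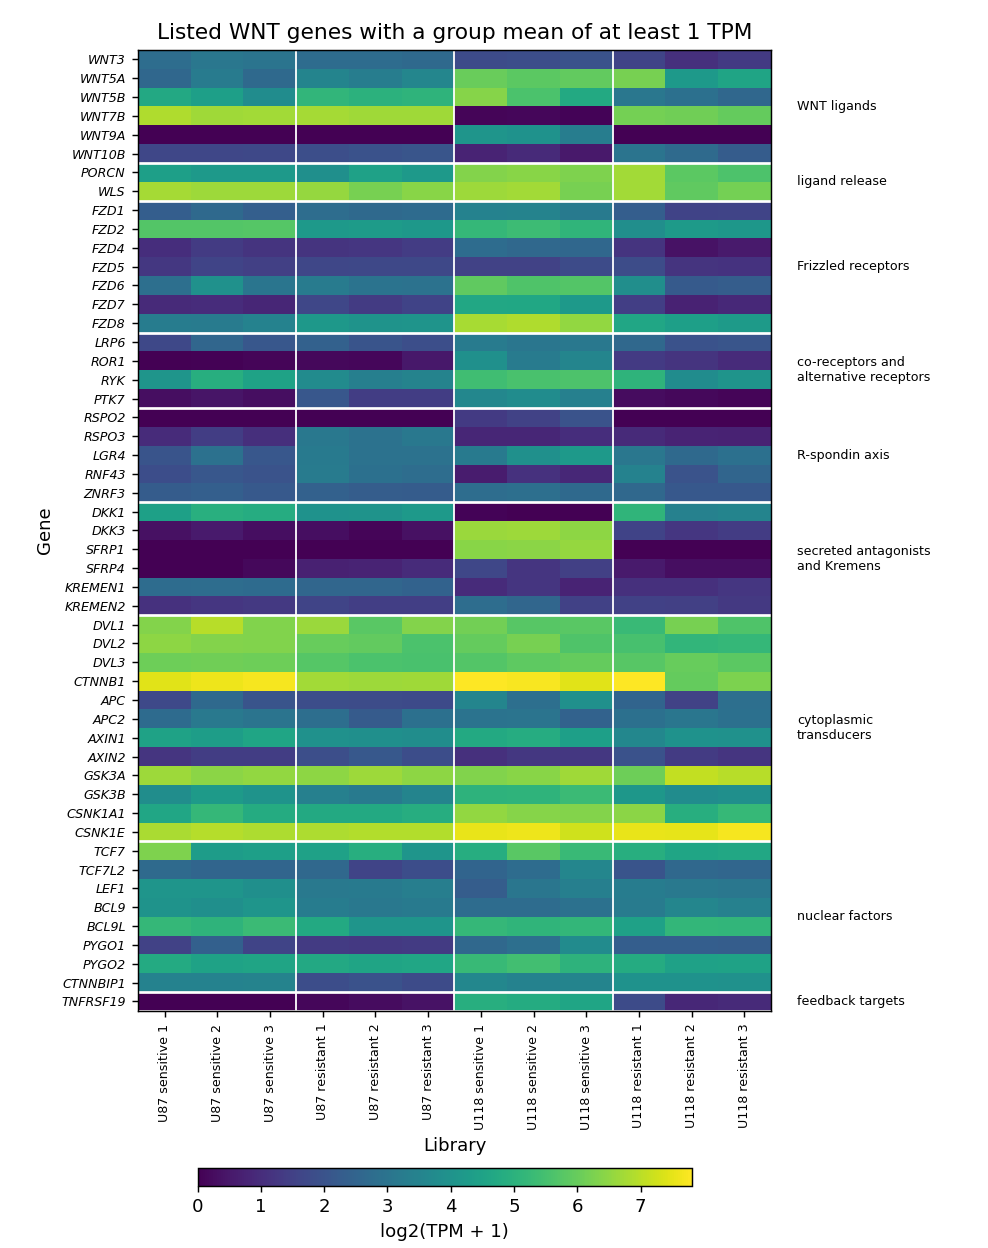
Levels of the listed WNT genes with a group mean of at least 1 TPM (rows, ordered by role) in the 12 libraries (columns), coloured by log2(TPM + 1). White lines separate groups and roles. The FZD6, FZD7, FZD8, ROR1 and PTK7 rows are brightest in the U118 sensitive columns, WNT7B and DKK1 are dark there alone, and the cytoplasmic and nuclear rows differ less between columns.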

How the data were processed

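mRNA was sequenced from sensitive and TMZ-resistant U87 and U118 cells, with 3 libraries in each of 4 groups, and samples were grouped by their labels. The authors deposited TPM values per gene in 1 table for each line. The submitters' processing notes name FastQC 0.11.2, Trimmomatic 0.36, HISAT2 2.0, bedtools 2.26.0 and the build GRCh38, while the tool that computed TPM, its annotation and its use of strand are not given in the sources used here. TPM keeps no counts, so depth and intervals that need it are unknown. Of 58174 identifiers, 57392 had a symbol and 57836 were in GENCODE, whose GRCh38 positions are printed.

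Values were fitted as log2(TPM + 1) with limma 3.58.1 (lmFit, eBayes with trend) in R 4.3.3, within each line, keeping genes that reached 1 TPM in 3 or more of 6 libraries, and for the interaction in 3 or more of 12. A call needed an adjusted p (Benjamini-Hochberg, all genes tested) under 0.05 together with a log2 fold change of 1 or more in either direction. In U118, SFRP1, WNT9A, PTK7, RSPO2 and SFRP4 reached 1 TPM only in sensitive libraries, and DKK1, WNT7B and WNT10B only in resistant ones. In U87, PTK7 and FZD7 did so only in resistant libraries. These genes entered the fit through that group, so the direction of their changes, called or not, was set by the filter. The fit was tested on simulated data first. Exact permutation tests were used for class sums. Members and lists were chosen with earlier results of these data known. Genes named were the 10 members and, of the wider list, genes called in at least 1 line with a mean of at least 5 TPM in some group, while RSPO2, SFRP4, CTNNB1, FZD5, LRP6, PORCN, WLS, KREMEN1 and KREMEN2 were named after their values were seen. Python 3.11.15, pandas 2.3.3 and matplotlib 3.10.9 were used. Alternatives were pseudocounts of 0.1 and 0.001, no filter, a mean TPM of 10 or more, median-ratio scaling, TPM without mitochondrially encoded genes, a replicate block, no trend, no fold threshold and leaving out each library, with the filter then at 2 libraries.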

Additional observations from a re-analysis of the deposited data

Results flagged for a closer look

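For 5 of the 8 members tested in U87 the resistant against sensitive change differed between the lines by the interaction test in limma, beside 30.5% of all genes tested. The U118 change minus the U87 change, on the log2(TPM + 1) scale, was -3.45 for WNT5B, 4.65 for DKK1, -4.08 for FZD7 and -3.06 for FZD8. It was -1.56 for WNT5A, whose call was lost in 10 of the 12 fits that left out 1 library. DKK3 and SFRP1 entered the fit only through their levels in U118, so their values describe U118 alone. They were -5.03 for DKK3 and -6.48 for SFRP1, and the latter depends on the pseudocount because all libraries but those of U118 sensitive cells were listed at 0. The U87 change was not called for any of these genes, and was not tested for DKK3 and SFRP1. U118 resistant libraries resembled U87 in all genes too, and the part of that resemblance in these differences was not tested.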

How the results depend on the processing

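Over the single genes and their alternatives, 655 values kept direction and call, 27 lost the call, 10 gained it and 7 reversed, and of the counts of called genes 186 stayed within 1.5 times and 18 did not. In U87 the members called higher went from 0 to 1 with a pseudocount of 0.1 or 0.001 (FZD7) or median-ratio scaling (WNT5B) and to 5 without a fold threshold, and those called lower from 1 to 2 without it. FZD7 entered the U87 fit only through its resistant libraries. For the wider list in U87, 2 genes called higher became 4 with either pseudocount or with median-ratio scaling, 8 without a fold threshold and 0 with a mean of at least 10 TPM, where 22 genes were tested. Those called lower went from 2 to 1 with that filter and to 12 without a fold threshold, and ranged from 2 to 4 when 1 library was left out, with 4 without U87 resistant replicate 1. In U118 the mean of at least 10 TPM left 7 members to test and took those called higher from 1 to 0, as DKK1 was no longer tested, and the wider list from 4 to 1 higher and from 18 to 10 lower over 26 genes. In the interaction it took the wider list from 6 to 2 higher and from 18 to 6 lower over 24 genes. The TCF7L2 difference between lines of 0.02 ran from -0.19 to 0.34 when 1 library was left out, with -0.03, -0.19, -0.07, -0.19, -0.07, -0.08 and -0.06 in the 7 fits that turned its sign, none of them called. The cause of these moves was not tested beyond the number of genes left to test.

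Nothing in the labels says that same-numbered sensitive and resistant libraries belong together, and the main fits did not pair them. The correlation of their deviations was 0.0113, -0.0671 and -0.0399 in U87, where different-numbered libraries ran from -0.0579 to 0.0772. In U118 it was 0.139, 0.0512 and 0.0953, and different-numbered libraries ran from -0.108 to 0.0397. The values show no pairing by number in U87 and do not settle it in U118. With a replicate block, the U118 log2 fold change of WNT5A of -0.93 had an adjusted p of 0.00813 by limma and still missed the fold threshold. With the replicate block, the member calls numbered 0 higher and 1 lower for U87 and 1 higher and 6 lower for U118, as without it, the U87 members at an adjusted p under 0.05 with any fold were 5 rather than 7, and over all genes the calls were 414 and 1040 in U87 and 1363 and 4218 in U118.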

Other observations

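Outside the 10 members, 17 of 41 tested genes of the wider WNT list had a change that differed between the lines by the interaction test in limma, 5 with a higher and 12 with a lower value in U118, where 30.5% of all genes were called. Among the lower ones the U118 change minus U87 change was -4.73 for PTK7 (adjusted p = 6.03e-08), -2.0 for RSPO3 (adjusted p = 2.15e-05) and -1.57 for LGR4, an R-spondin receptor (adjusted p = 0.0099). The lower ones include WNT9A, ROR1, RSPO2, SFRP4 and TNFRSF19, too low to be tested in U87, and RSPO3, too low in U118. Their results say nothing of a change in that line. PTK7 reached 1 TPM only in U87 resistant and U118 sensitive libraries, so the sign of its difference was set by the filter. The called nuclear factors were CTNNBIP1 at 2.05 (adjusted p = 9.93e-06), BCL9, a beta-catenin co-activator, at 1.42 (adjusted p = 0.000341), and LEF1, a partner of beta-catenin on DNA, at 1.04 (adjusted p = 0.0276), all higher and 3 of 8 tested. LEF1 measured 15.8, 15.9 and 13.8 TPM in U87 sensitive and 7.94, 8.20 and 9.10 TPM in U87 resistant libraries, against 3.96, 7.37 and 9.28 TPM in U118 sensitive and 8.75, 7.95 and 7.5 TPM in U118 resistant libraries. LGR4, BCL9 and LEF1 were chosen after their values were seen, and alternatives were not run for these differences.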
